A study of Homo sapiens with 6 samples.

Results

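AFP, ALB, GPC3, DLK1, SPP1, KRT19, EPCAM, SOX9, PROM1 and CD24 are genes whose products are used as markers of fetal liver cells, of liver progenitor cells or of liver cancer. They were taken from the count table by their Ensembl gene identifier, with the version removed, and are 10 of its 20422 genes. All 10 were found.

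HepG2 is a long-established line of human liver cancer cells. RNA was sequenced from 3 samples of NC cells, which carried the vector, and 3 samples of ORF-Flag cells, which carried an open reading frame with a Flag tag. This reading frame lies in the long non-coding RNA gene ASH1L-AS1 and encodes the microprotein APPLE. The study followed AFP protein as a tumor marker in these cells and reported by Western blot that it was higher with APPLE overexpression. The comparison here asks which marker transcripts differed between ORF-Flag and NC. Transcript and protein are unlike measures, and protein was not analysed here. The sample labels describe plasmids brought into HepG2, while the study's methods describe lentiviral vectors, puromycin and stable lines, so the delivery is given here in both forms. The groups compare overexpression with vector in a single cell line. The level of the construct was not analysed here and did not serve to check the labels. No source used here tells if the 3 libraries of each group came from separate cultures, and p-values then measure only the spread between these samples, which may be technical.

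The total counts were 20081203, 24907524 and 30088457 in NC 1, NC 2 and NC 3, and 26866148, 17494668 and 27015836 in ORF-Flag 1, ORF-Flag 2 and ORF-Flag 3. At these depths 3 counts correspond to between 0.100 and 0.172 CPM, the limit that a count of 0 allows, for counting error only. CPM is the count scaled to a common library total, with TMM factors that correct for the composition of the libraries. NC 1 stood apart in its base composition. Across genes, which are not independent replicates, the deviation of a library from the mean of all libraries had a Spearman correlation with GC content of 0.45 in NC 1, against 0.14 in NC 2 and -0.24 in NC 3. In ORF-Flag 1, 2 and 3 it was -0.03, -0.20 and -0.22. The 9 hepatocyte markers had counts in each library. Their summed level was 25139, 25738 and 26145 CPM in NC and 26135, 25775 and 25794 CPM in ORF-Flag. APOB had the highest CPM of them averaged over the 6 libraries, though ALB was higher in ORF-Flag 1. The levels were uneven, and TTR, named here after its values were seen, had 116 to 169 counts in a library, or 5.63 to 6.66 CPM.

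The bipotent hepatoblast of the fetal liver gives rise to hepatocytes, which secrete albumin, and to cholangiocytes, which line the bile ducts and carry KRT19, EPCAM and SOX9. AFP, GPC3 and DLK1 are made in the fetal liver, are largely silent in the adult hepatocyte and return in many liver cancers, for which they are called oncofetal. SPP1, PROM1 and CD24 have been used to mark progenitor cells or tumor cells with stem cell traits, and ALB marks the mature hepatocyte.

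SPP1 and KRT19 rose in ORF-Flag, and they were the 2 markers called among the 9 with enough counts for a test. PROM1 was too low to be tested. A gene is called here where its adjusted p was below 0.05 in edgeR's quasi-likelihood test, with Benjamini-Hochberg adjustment over the 12386 genes tested. Of those 12386 genes 551 were called, or 4.45%, with 306 higher in ORF-Flag (2.47%) and 245 lower (1.98%). At an unadjusted p below 0.05 stood 3 of the 9 markers, against 18.5% of all genes tested. The 9 markers had a median log2 fold change of 0.03, against -0.00 over all genes tested, and 7 of the 9 lay above 0. With 1 library left out this median lay between 0.00 (without NC 3) and 0.06 (without NC 1 or ORF-Flag 2). The groups did not overlap in SPP1, KRT19 and ALB, 3 of the 9 markers, while they did not overlap in 22.4% of all genes tested. Of the 7 markers not called, 6, ALB among them, had more than 5 CPM, and in these no bound of a 95% interval for the difference was larger than 0.26 on the log2 scale, or 1.19-fold. The number of genes called, 551, varied with the library left out, in fits that also had fewer samples. It was 459 without NC 1, 267 without NC 2, 1058 without NC 3, 300 without ORF-Flag 1, 278 without ORF-Flag 2 and 199 without ORF-Flag 3. In each of these fits 2 markers were called.

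**Figure D1:**
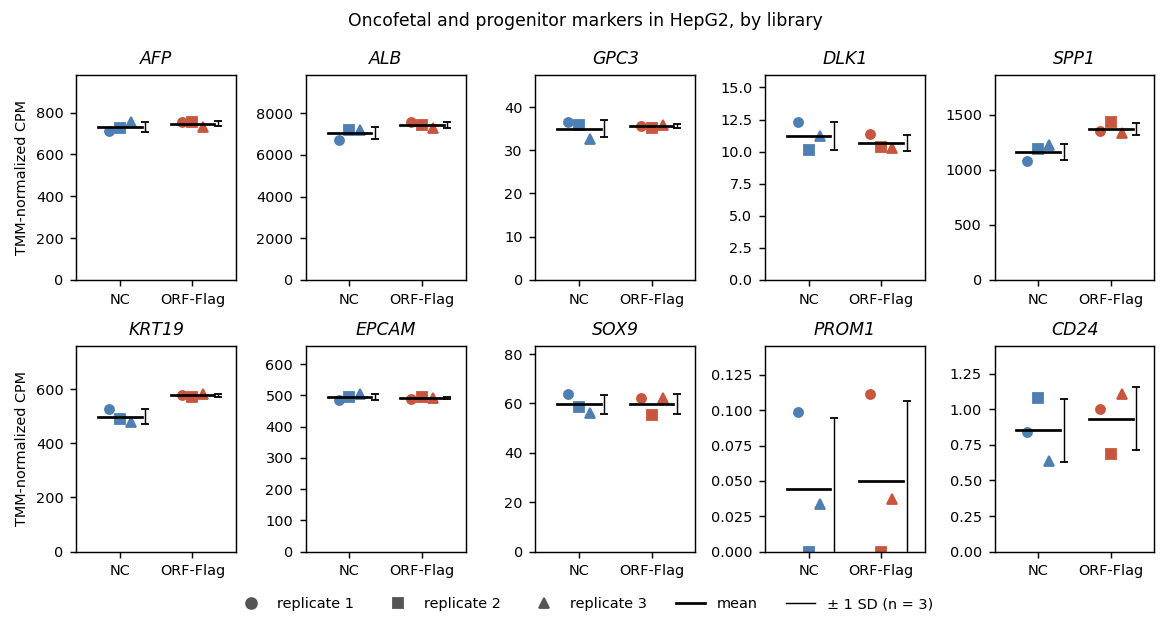
TMM-normalized CPM of the 10 markers, 1 panel a gene, with NC libraries in blue, ORF-Flag libraries in red, a marker shape for each replicate, the mean as a bar and 1 SD to the side (n = 3). All 3 ORF-Flag libraries lie above all 3 NC libraries in SPP1, KRT19 and ALB, and the vertical scale differs between panels.

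AFP encodes the fetal counterpart of serum albumin, a blood marker of liver cancer. Its level was 713, 724 and 755 CPM in NC 1, 2 and 3 and 754, 754 and 733 CPM in ORF-Flag 1, 2 and 3. NC 1 and NC 2 were the lowest, NC 3 was level with ORF-Flag 1 and 2, and the groups overlapped. The means were 731 ± 22.0 CPM in NC and 747 ± 12.5 CPM in ORF-Flag (SD, n = 3 each), or a log2 fold change of 0.03 with a standard error of 0.03 (edgeR adjusted p = 0.667). The 95% interval of the difference ran from -0.04 to 0.10, so at this depth a difference in AFP transcript larger than 1.07-fold lay outside it. In bulk samples fewer cells of a type and less RNA per cell cannot be told apart. AFP was past the threshold in 0 of 14 alternative settings, with an adjusted p between 0.328 and 0.971 over edgeR, DESeq2 and limma-trend. Its log2 fold change was 0.014 without NC 1 and 0.056 without NC 3. With the trends of each library on GC content and transcript length removed, it was 0.003.

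ALB encodes serum albumin, the main secreted protein of the mature hepatocyte. It had 6714, 7196 and 7204 CPM in NC 1, 2 and 3 and 7586, 7434 and 7289 CPM in ORF-Flag 1, 2 and 3. All ORF-Flag libraries lay above all NC libraries, and NC 1 was the lowest by a wide margin. The means of 7038 ± 280.5 and 7436 ± 148 CPM (SD, n = 3 each) gave a log2 fold change of 0.08 with a 95% interval from 0.01 to 0.15. ALB was not called in edgeR's test, with an unadjusted p = 0.0284 and an adjusted p = 0.205. Over the alternatives the adjusted p of ALB from edgeR, DESeq2 and limma-trend lay between 0.0712 and 0.561. Without NC 1 its log2 fold change was 0.05.

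The ratio of AFP to ALB sets the fetal albumin against the adult one within each library. The log2 ratio of their counts was -3.24, -3.31 and -3.25 in NC 1, 2 and 3 and -3.33, -3.30 and -3.31 in ORF-Flag 1, 2 and 3. NC 2 lay inside the range of ORF-Flag, so the groups overlapped. The mean was -3.27 ± 0.04 in NC and -3.32 ± 0.01 in ORF-Flag (SD, n = 3 each), a difference of -0.05 on the log2 scale. In other words, 9.42 to 9.94 counts of ALB were found for each count of AFP in NC and 9.86 to 10.1 in ORF-Flag.

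AFP and ALB lie in tandem with AFM, another gene of the albumin family, on chromosome 4 of GRCh38. In GENCODE v29, ALB runs from 73397114 to 73421412, AFP from 73431138 to 73456174 and AFM from 73481683 to 73504001, all on the + strand, and GC, which encodes the vitamin D binding protein of the same family, from 71741693 to 71804041 on the other strand. AFM had 2.46 CPM in NC and 2.51 CPM in ORF-Flag, with an adjusted p of 0.940 in edgeR's test. GC had between 1 and 17 counts in a library and was not tested. Of the 3 tested albumin family genes 0 were called by edgeR or limma-trend, against 4.45% of all genes tested in edgeR, and 1, ALB, had an unadjusted p below 0.05 in edgeR, against 18.5%. DESeq2 called neither AFP nor ALB and gave no adjusted p for AFM.

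The promoters of ALB and AFP are shown in part because both genes are liver-specific and hold a CCAAT box, a common promoter element, near the start. RefSeq promoters of GRCh38.p14 were matched for 5 of the 10 markers. Both windows are on the + strand, with CCAAT in capitals, which in AFP reads ATTGG because the match is on the other strand.
ALB: tttgtaatcggttggcagCCAATgaaatac
AFP: accgctatgctgttaattATTGGcaaatgt
The ALB window is chr4:73404183-73404212, with CCAAT 86 bases before the start of transcription, and ALB held another match 44 bases before the start. The AFP window is chr4:73436078-73436107, with the match 125 bases before the start. Neither window lies in an exon of GENCODE v29, and both lie within the annotated gene, which has longer transcripts. Motifs were searched on both strands of the 250 bases before 34943 starts, and letters of different motifs may share bases. CCAAT was found in 32% of these starts, TATAAA in 10.8%, the AP-1 letters TGANTCA in 6.59% and the TEAD letters GGAATG in 11.9%. AFP also held TATAAA 29 bases before the start. In the promoter of SPP1, the called marker with a RefSeq entry, each of these motifs had 0 matches. TGANTCA and GGAATG had 0 matches in ALB and AFP as well, which says only that these letters are not in the 250 bases searched.

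GPC3 encodes a heparan sulfate proteoglycan anchored to the cell surface, made in fetal liver and in many liver cancers. It had 36.6, 35.8 and 32.7 CPM in NC 1, 2 and 3 and 35.7, 35.2 and 35.9 CPM in ORF-Flag 1, 2 and 3. NC 1 was the highest library and NC 3 the lowest, with the ORF-Flag libraries between them. The log2 fold change was 0.03, with a 95% interval from -0.09 to 0.15 (edgeR adjusted p = 0.848). GPC3 lies on chromosome X from 133535745 to 133985895. Of the other glypicans, which carry the same kind of anchor, GPC1 had a log2 fold change of -0.08 and GPC6 of -0.10. With adjusted p = 0.601 and 0.476 in edgeR's test, neither was called. SULF2, a sulfatase that trims heparan sulfate chains, had 21.1 CPM in NC and 18.8 CPM in ORF-Flag, with an adjusted p = 0.228 in edgeR's test. GPC1, GPC6 and SULF2 were chosen for naming after their values were seen, and the sign of GPC1 turned under at least 1 alternative.

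DLK1 encodes a transmembrane protein with EGF repeats that marks the hepatoblast. It had 12.3, 10.1 and 11.2 CPM in NC 1, 2 and 3 and 11.4, 10.3 and 10.3 CPM in ORF-Flag 1, 2 and 3. The highest and the lowest library were both NC. The log2 fold change was -0.06, with a 95% interval from -0.26 to 0.13 (edgeR adjusted p = 0.782). With 180 to 336 counts in a library, its interval was wider than that of AFP, which had 13126 to 22601 counts. The sign of the log2 fold change turned under at least 1 alternative for GPC3 and for DLK1.

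A list of 18 other fetal liver and oncofetal genes was described in the same way. Of its 16 tested genes, 0 were called higher and 3 called lower, at a background of 1.98% lower, and 7 had a log2 fold change above 0. The median log2 fold change was -0.02, against -0.00 over all genes tested, with a range from -0.04 (without NC 3) to 0.01 (without NC 1) when 1 library was left out. NOTUM, a secreted enzyme that inactivates Wnt ligands, had 149, 141 and 126 CPM in NC 1, 2 and 3 and 115, 108 and 108 CPM in ORF-Flag 1, 2 and 3. All ORF-Flag libraries lay below all NC libraries, and NC 3 was the lowest of NC. NOTUM fell by 0.32 on the log2 scale (edgeR adjusted p = 0.000143), and in the 14 alternatives its log2 fold change lay between -0.39 and -0.23.

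PEG3, an imprinted gene that encodes a zinc finger protein, had 574, 607 and 625 CPM in NC 1, 2 and 3 and 544, 530.5 and 530.1 CPM in ORF-Flag 1, 2 and 3. It fell by 0.17 on the log2 scale (edgeR adjusted p = 0.00452), with groups that did not overlap. Of the exon bases of PEG3, 12.9% also lie in exons of ZIM2, so part of its counts is uncertain. TRIM71, an RNA-binding protein of early development, had 54.2, 53.2 and 50.5 CPM in NC 1, 2 and 3 and 48.1, 44.4 and 43.0 CPM in ORF-Flag 1, 2 and 3. It fell by 0.22 (edgeR adjusted p = 0.0166). The call of TRIM71 was lost without NC 2, ORF-Flag 2 or ORF-Flag 3, with adjusted p = 0.0812, 0.0725 and 0.138 in edgeR. PEG10, an imprinted gene derived from a retrotransposon, with the highest CPM of the list after PEG3, was not called, at 412 CPM in NC and 433 CPM in ORF-Flag (edgeR adjusted p = 0.216).

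SPP1 encodes osteopontin, a secreted phosphoprotein that binds integrins and CD44. It had 1077, 1186 and 1222 CPM in NC 1, 2 and 3 and 1350.4, 1434 and 1334 CPM in ORF-Flag 1, 2 and 3. Every ORF-Flag library lay above every NC library, NC 1 was the lowest and ORF-Flag 2 the highest. SPP1 rose from 1162 ± 75.5 CPM to 1373 ± 53.8 CPM (SD, n = 3 each), or a log2 fold change of 0.24 with a standard error of 0.04 (edgeR adjusted p = 0.000635). This is a 1.18-fold difference, with a 95% interval from 1.12 to 1.25. Of all genes tested, 58 had a smaller p, and of the genes called higher 140 had a larger fold change, so the difference was of a common size among called genes, whose median absolute log2 fold change was 0.23.

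SPP1 was past the threshold in 14 of 14 alternatives, with log2 fold changes between 0.19 and 0.28 and adjusted p between 1.2e-09 and 0.00933 over edgeR, DESeq2 and limma-trend. The lower value, 0.19, came without NC 1, the library with the strongest trend on GC content. With the trends of each library on GC content and transcript length removed, the log2 fold change of SPP1 was 0.21 (edgeR adjusted p = 6.5e-05). SPP1 lies on chromosome 4 from 87975650 to 87983426, and 0 of its 31-base stretches occur in a transcript of another gene.

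Genes for the receptors of osteopontin were on the list of family members and partners. ITGAV, ITGB1 and ITGB5, integrin subunits named here after their values were seen, had log2 fold changes of 0.08, 0.06 and 0.04. Their adjusted p in edgeR's test was 0.299, 0.418 and 0.625, and none was called. The log2 fold changes of ITGAV and ITGB1 were 0.04 and 0.02 without NC 1, and that of ITGB5 was 0.02 without NC 3. CD44 had between 0 and 2 counts in a library and ITGB3 between 0 and 3, which is at or under the limit that a count of 0 allows. Of the exon bases of ITGB3, 51.6% are shared with another protein-coding gene, so its counts are uncertain. Of 24 family members and partners of the markers, 14 were tested and 2 were called, both higher, at a background of 2.47% higher, namely KRT8 and KRT18, and 4 had 0 counts in all libraries, among them SOX8, SOX10 and SULF1. The median log2 fold change of the 14 was 0.05, and with 1 library left out it lay between 0.01 (without ORF-Flag 2) and 0.07 (without NC 3).

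**Figure D2:**
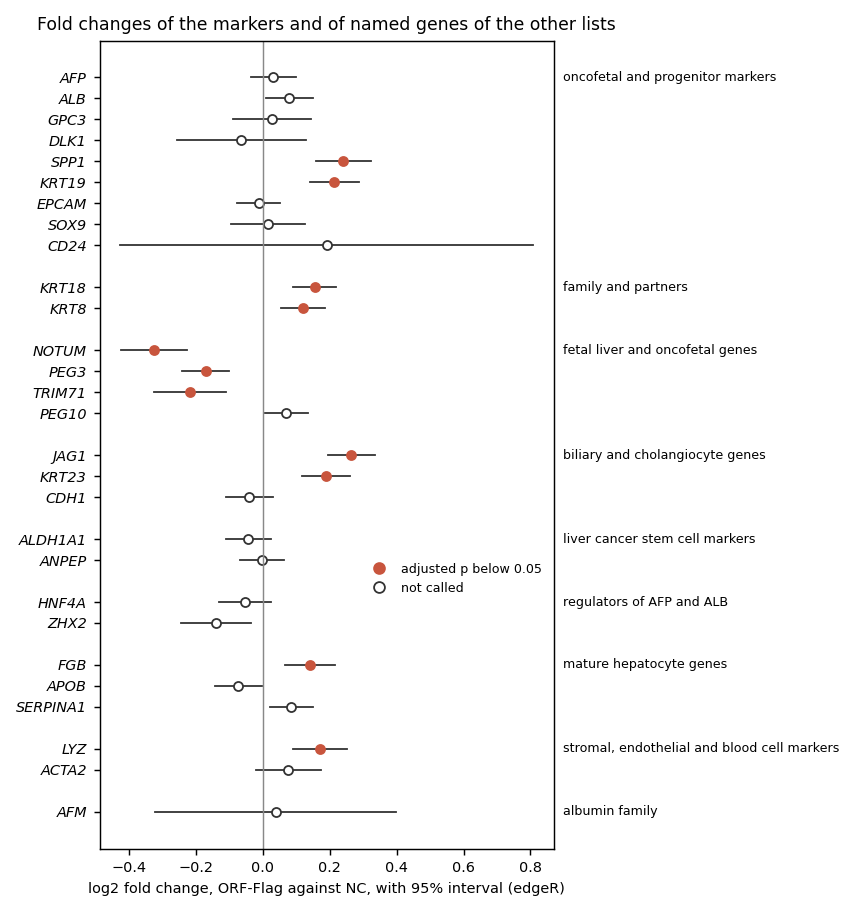
Log2 fold change of ORF-Flag against NC with its 95% interval from edgeR, for the 9 tested markers and for genes of the other lists that the rule for named genes took, with called genes in red and the others open. SPP1 and KRT19 are the called markers, and the widest interval among those drawn belongs to CD24, which had 12 to 30 counts in a library.

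KRT19 encodes a type I keratin, an intermediate filament protein of bile duct cells and of progenitor cells. It had 529, 490.5 and 478 CPM in NC 1, 2 and 3 and 578, 573 and 584 CPM in ORF-Flag 1, 2 and 3. The ORF-Flag libraries lay close together and above all of NC, of which NC 1 was the highest. KRT19 rose from 499 ± 26.3 CPM to 578 ± 5.45 CPM (SD, n = 3 each), or a log2 fold change of 0.21 with a standard error of 0.04 (edgeR adjusted p = 0.000636). This is a 1.16-fold difference, with a 95% interval from 1.10 to 1.22, and of the genes called higher 173 had a larger fold change. NC 1 was thus nearest to ORF-Flag in KRT19 and farthest from it in SPP1. The transcript of KRT19 has a GC content of 61.8%, the highest of the 10 markers, and that of SPP1 41.8%, against a median of 48.6% over the genes tested.

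KRT19 was past the threshold in 14 of 14 alternatives, with log2 fold changes between 0.18 and 0.26 and adjusted p between 1.5e-07 and 0.00898 over edgeR, DESeq2 and limma-trend. Without NC 1 its log2 fold change was 0.26, and it was also 0.26 with the trends on GC content and length removed (edgeR adjusted p = 1.5e-07). Of the 31-base stretches of KRT19, 11.4% also occur in transcripts of KRT19P1, KRT17, KRT19P2 or KRT19P3. The sources used here do not state how reads with several matches were counted or whether strand was used, so the level of KRT19 is uncertain to that extent. KRT17 itself had 0.431 CPM in NC and 0.375 CPM in ORF-Flag.

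EPCAM encodes an adhesion molecule of epithelial and progenitor cells. It had 486, 496 and 505 CPM in NC 1, 2 and 3 and 488, 495 and 492 CPM in ORF-Flag 1, 2 and 3. All ORF-Flag libraries lay inside the range of NC. The log2 fold change was -0.01, with a 95% interval from -0.08 to 0.05, or between 0.948-fold and 1.04-fold (edgeR adjusted p = 0.890). EPCAM shares 5.55% of its 31-base stretches with another gene.

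SOX9 encodes a transcription factor of bile duct and progenitor cells. It had 64.0, 58.8 and 56.1 CPM in NC 1, 2 and 3 and 62.0, 55.2 and 62.2 CPM in ORF-Flag 1, 2 and 3. The highest library was NC 1 and the lowest ORF-Flag 2, so the groups overlapped widely. The log2 fold change was 0.01, with a 95% interval from -0.10 to 0.13 (edgeR adjusted p = 0.925). The sign turned under at least 1 alternative for EPCAM and for SOX9. Of the biliary markers on the cell type list (among them KRT7, KRT19, SOX9 and EPCAM), KRT19 had the highest CPM averaged over the 6 libraries, though EPCAM was higher in NC 2 and NC 3. Their summed level was 1089, 1053 and 1048 CPM in NC and 1138, 1133 and 1145 CPM in ORF-Flag, with ORF-Flag above NC in each library, and KRT7 had between 5 and 12 counts in a library. Without KRT19 the sum was 561, 563 and 569 CPM in NC and 559.6, 559.5 and 561 CPM in ORF-Flag, so the groups overlapped. Whether the share of cells of a biliary type differed was not tested.

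A list of 18 further biliary and cholangiocyte genes held 14 tested genes, of which 2 were called higher and 0 called lower, at a background of 2.47% higher. Of the 14, 8 had a log2 fold change above 0. Their median log2 fold change was 0.02, and with 1 library left out it lay between 0.00 (without NC 3) and 0.08 (without NC 1). JAG1, the Notch ligand needed for bile duct formation, had 218, 233 and 221 CPM in NC 1, 2 and 3 and 270.4, 269.9 and 267 CPM in ORF-Flag 1, 2 and 3. The ORF-Flag libraries were close together and above NC, a log2 fold change of 0.26 (edgeR adjusted p = 2.5e-05). KRT23, a type I keratin, had 137, 141 and 137 CPM in NC 1, 2 and 3 and 159, 158 and 157 CPM in ORF-Flag 1, 2 and 3. It rose by 0.19 on the log2 scale (edgeR adjusted p = 0.00189). Both calls were present in 14 of 14 alternatives. CDH1, which encodes E-cadherin and had the highest CPM of the list averaged over the 6 libraries, though JAG1 was higher in ORF-Flag, was not called, with a log2 fold change of -0.04 (edgeR adjusted p = 0.596). The Notch targets HES1 and HEY1 had log2 fold changes of 0.02 and -0.07. HES1, whose sign turned under at least 1 alternative, and HEY1 were chosen for naming after their values were seen, and neither was called, with adjusted p of 0.934 and 0.806 in edgeR's test. Without NC 1, SOX4 of this list was also called, with a log2 fold change of 0.31 (edgeR adjusted p = 0.0439, against 0.230 with all libraries and up to 0.517 over the alternatives).

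KRT8 and KRT18 encode the type II and type I keratins that pair in the filaments of hepatocytes. KRT8 had 1976, 1906 and 1888 CPM in NC 1, 2 and 3 and 2103, 2048 and 2125 CPM in ORF-Flag 1, 2 and 3. KRT18 had 825, 814 and 805 CPM in NC 1, 2 and 3 and 923, 918 and 881 CPM in ORF-Flag 1, 2 and 3. In both genes all ORF-Flag libraries lay above all NC libraries. KRT18 rose by 0.16 on the log2 scale (edgeR adjusted p = 0.00513), and its call was present in 14 of 14 alternatives. KRT8 rose by 0.12 (edgeR adjusted p = 0.0280), and this call was lost without NC 2, ORF-Flag 1, ORF-Flag 2 or ORF-Flag 3, with adjusted p = 0.121, 0.0921, 0.0674 and 0.160 in edgeR. Exons of KRT8 and KRT18 overlap, over 7.63% of the exon bases of KRT8 and 16.3% of those of KRT18, so reads there may have gone to either gene.

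After these values were seen, all keratin genes of the table were listed. Of 55 keratin genes 29 had 0 counts in all libraries and 9 were tested, of which 5 were called, all higher in ORF-Flag, at a background of 2.47% higher. Besides KRT19 these were KRT8, KRT18, KRT23 and KRT15, or 4 of the other 8, and the median log2 fold change of the 9 was 0.19. Because the list was made after the values of KRT7, KRT8, KRT18, KRT19 and KRT23 were known, these counts are a description. KRT15, a type I keratin of basal epithelial cells, had 7.17, 7.41 and 8.79 CPM in NC 1, 2 and 3 and 10.7, 11.1 and 11.5 CPM in ORF-Flag 1, 2 and 3. Its groups did not overlap, and the log2 fold change was 0.50 (edgeR adjusted p = 0.00399). KRT10 lay lower in all ORF-Flag libraries, with a log2 fold change of -0.16, and was not called (edgeR adjusted p = 0.214). KRT80 was not called either, with a log2 fold change of 0.29 (edgeR adjusted p = 0.135), but was past the threshold without NC 2 (edgeR adjusted p = 0.0250, in a range of 0.0250 to 0.373 over the alternatives).

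**Figure D3:**
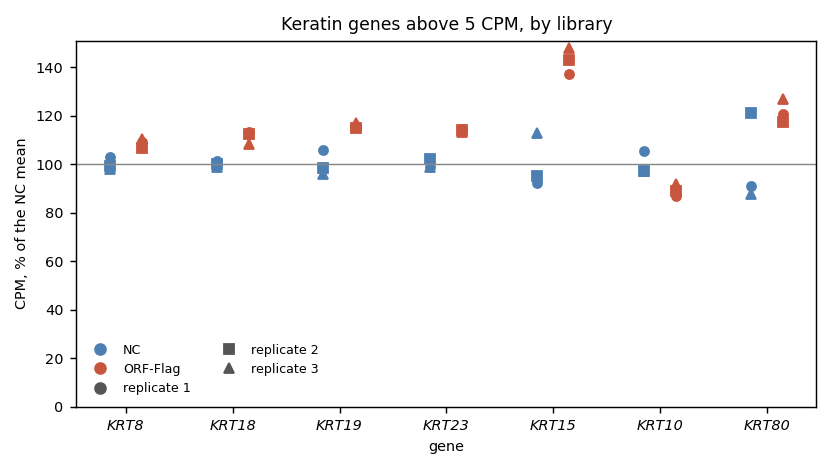
CPM of the 7 tested keratin genes above 5 CPM as a percent of the NC mean, by library, with NC in blue, ORF-Flag in red and a shape for each replicate. The ORF-Flag libraries lie above all NC libraries in KRT8, KRT18, KRT19, KRT23 and KRT15, below them in KRT10, and overlap with them in KRT80.

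PROM1 encodes CD133, a membrane protein used to sort stem-like tumor cells. It had 2, 0 and 1 counts in NC 1, 2 and 3 and 3, 0 and 1 counts in ORF-Flag 1, 2 and 3. These counts were at or under the limit that a count of 0 allows, so neither a level nor a difference was detectable at this depth. Of its exon bases, 2.23% also lie in exons of FGFBP2.

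CD24 encodes a small glycoprotein of the cell surface. It had 17, 27 and 19 counts in NC 1, 2 and 3 and 27, 12 and 30 counts in ORF-Flag 1, 2 and 3. In CPM the lowest library was NC 3 and the highest ORF-Flag 3, and the groups overlapped. The means were 0.852 ± 0.223 CPM in NC and 0.935 ± 0.220 CPM in ORF-Flag (SD, n = 3 each), with a log2 fold change of 0.19 (edgeR adjusted p = 0.7998). Its 95% interval ran from 0.744-fold to 1.75-fold, so a difference of the size seen in SPP1 was not detectable in CD24. Of its 31-base stretches 12.65% occur in transcripts of other genes, among them the pseudogene CD24P4. The sign of its log2 fold change turned under at least 1 alternative.

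A list of 15 further liver cancer stem cell markers held 8 tested genes, of which 0 were called by edgeR, against 4.45% of all genes tested, and 1 had an unadjusted p below 0.05, against 18.5%. DESeq2 and limma-trend also called 0 of them. With trends on GC content and length removed 1 was called, ICAM1, an adhesion molecule, with a log2 fold change of 0.13 (edgeR adjusted p = 0.0412, against 0.227 without this step and up to 0.498 over the alternatives). The median log2 fold change of the list was -0.02, and it was above 0 without NC 1 (0.02), NC 2 (0.01) or ORF-Flag 2 (0.01). The genes of the list with the highest CPM were ALDH1A1, an aldehyde dehydrogenase, with 1421 CPM in NC and 1379 CPM in ORF-Flag, and ANPEP, the membrane peptidase CD13, with 349 CPM in each group. Their adjusted p in edgeR's test was 0.528 and 0.992. KIT, CACNA2D1 and BMI1 had 0 counts in each library. In GENCODE v29, 23.4% of the exon bases of BMI1 are shared with the readthrough gene COMMD3-BMI1. The annotation release used in counting is not given, so the count of 0 in BMI1 is uncertain, and its reason was not tested.

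Levels of different genes were compared per kilobase of exon (FPKM), averaged over the 6 libraries. ALB had 2143 FPKM, followed by SPP1 with 546, KRT19 with 231, AFP with 227 and EPCAM with 196 FPKM. SOX9 with 15.2 and GPC3 with 13.0 FPKM came next, then DLK1 with 2.06, CD24 with 0.289 and PROM1 with 0.0063 FPKM. By this measure, KRT19 and AFP were the neighbours that did not differ beyond their spread, with ranges of 205 to 249.97 FPKM and 219 to 232 FPKM. KRT19 was the higher of the pair in 4 of 6 libraries, namely NC 1 and all of ORF-Flag. AFP and EPCAM, 1.16-fold apart, and SOX9 and GPC3, 1.17-fold apart, kept their order in 6 of 6 libraries. FPKM here divides by all annotated exon bases, 2336 in KRT19, 3259 in AFP and 2519 in EPCAM. Their longest transcripts are shorter, with 1360, 2454 and 1694 stretches of 31 bases. Such lengths may change the order of KRT19, AFP and EPCAM, and that order was not computed. By FPKM, ALB ranked 16 among the 12386 genes tested, SPP1 57, KRT19 140, AFP 143 and EPCAM 167, while SOX9 ranked 2611, GPC3 2988, DLK1 8515 and CD24 11404. The markers thus fell into 5 abundant genes, 2 of intermediate level and 3 of low level, and EPCAM had 12.9 times the FPKM of SOX9.

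**Figure D4:**
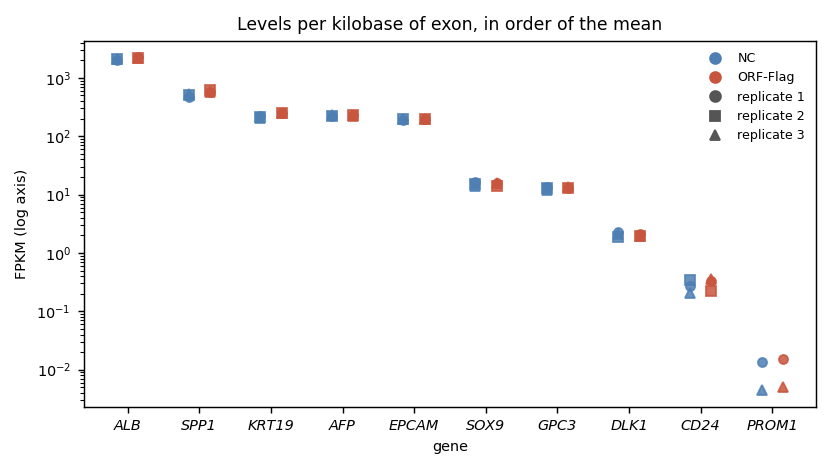
FPKM of each marker on a log axis, in order of the mean, with NC in blue, ORF-Flag in red and a shape for each replicate. The step from EPCAM to SOX9 separates 5 abundant markers from the rest, and libraries with 0 counts of PROM1 cannot be drawn on this axis.

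A list of 19 known regulators of AFP and ALB was tested in full, and edgeR called 0 of 19, against 4.45% of all genes tested, with 3 at an unadjusted p below 0.05, against 18.5% of all genes. DESeq2 called 0 and limma-trend 1. The median log2 fold change was -0.05, but it was -0.09 without NC 3, 0.01 without NC 1 and -0.01 with trends on GC content and length removed. HNF4A, a nuclear receptor of hepatocytes with the highest CPM of the list, had 146 CPM in NC and 141 CPM in ORF-Flag (edgeR adjusted p = 0.507). ZHX2, a repressor of AFP after birth, had 50.6 CPM in NC and 45.8 CPM in ORF-Flag and a log2 fold change of -0.14 (edgeR adjusted p = 0.118). The gene that limma-trend called was CEBPA, a transcription factor of mature hepatocytes, with a log2 fold change of -0.31 and an adjusted p = 0.0521 in edgeR, against 0.0389 in limma-trend. Without NC 3 or ORF-Flag 3, CEBPA had a log2 fold change of -0.42, with adjusted p = 0.000736 and 0.0260 in edgeR, and without a filter on low counts its adjusted p in edgeR was 0.000447. Over the alternatives the log2 fold change of CEBPA lay between -0.42 and -0.19, the latter without NC 1 (edgeR adjusted p = 0.204). With trends on GC content and length removed it was -0.22 (edgeR adjusted p = 0.0895). The adjusted p of CEBPA reached 0.211 in edgeR, without ORF-Flag 1. Of its exon bases, 43.4% are shared with other annotated genes.

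Of 16 mature hepatocyte genes besides ALB, 14 were tested and 1 was called, FGB, or 7.14%, against 4.45% of all genes tested. The median log2 fold change was 0.02, and with 1 library left out it lay between -0.03 (without ORF-Flag 1) and 0.04 (without ORF-Flag 3), below 0 without NC 3, ORF-Flag 1 or ORF-Flag 2. FGB, the beta chain of fibrinogen, had 344, 361 and 381 CPM in NC 1, 2 and 3 and 407, 399.7 and 392 CPM in ORF-Flag 1, 2 and 3. It rose by 0.14 on the log2 scale (edgeR adjusted p = 0.0232). This call was lost without any single library except NC 3, with adjusted p = 0.0624 without NC 1, 0.0927 without NC 2, 0.117 without ORF-Flag 1, 0.0814 without ORF-Flag 2 and 0.0646 without ORF-Flag 3 in edgeR. APOB, the protein of low density lipoprotein, had a log2 fold change of -0.07 and SERPINA1, or alpha-1 antitrypsin, of 0.09. Neither was called, with adjusted p = 0.244 and 0.130 in edgeR. SERPINA1 was past the threshold with DESeq2 (adjusted p = 0.0449), without NC 3 (edgeR adjusted p = 0.0399) and with trends on GC content and length removed (edgeR adjusted p = 0.0272). APOB was past it in the last of these settings (edgeR adjusted p = 0.0110), in a range of 0.0110 to 0.502 over its alternatives, and so was HPD, an enzyme of tyrosine breakdown, with a log2 fold change of 0.10 (edgeR adjusted p = 0.0320, in a range of 0.0320 to 0.478). That of SERPINA1 ranged from 0.0272 to 0.349 over edgeR, DESeq2 and limma-trend.

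Markers of stromal, endothelial and blood cells were read as a check of the cell line. Of 17 such genes 7 were tested and 1 was called, against 4.45% of all genes tested. The median log2 fold change was -0.03, and it was -0.06 without NC 2, and above 0 without NC 1 (0.03) and with at least 10 counts required in every library (0.08). The called gene was LYZ, which encodes lysozyme and had 1255, 1401 and 1396 CPM in NC 1, 2 and 3 and 1488, 1591 and 1488 CPM in ORF-Flag 1, 2 and 3. It rose by 0.17 on the log2 scale (edgeR adjusted p = 0.0112), a call lost without ORF-Flag 2 (edgeR adjusted p = 0.0998). Of the exon bases of LYZ, 34.0% lie in exons of another annotated gene. The summed level of the 17 markers was 1376, 1515 and 1505 CPM in NC and 1607, 1707 and 1607 CPM in ORF-Flag, with the highest CPM in LYZ. Without LYZ the sum was 121, 114 and 108 CPM in NC and 118, 116 and 119 CPM in ORF-Flag, so the groups overlapped. The sum of the 4 endothelial markers did not overlap between the groups. It was 5.94, 5.04 and 5.91 CPM in NC and 7.45, 6.26 and 6.96 CPM in ORF-Flag. PECAM1, named here after its values were seen, had the highest CPM of them. STAB2, the other endothelial marker tested, also named after its values were seen, was not higher in ORF-Flag. It had 1.19, 0.881 and 0.902 CPM in NC and 0.894, 0.747 and 0.704 CPM in ORF-Flag, so its groups overlapped. PECAM1 had a log2 fold change of 0.39 and was not called (edgeR adjusted p = 0.0958, in a range of 0.0504 to 0.330 over the alternatives). ACTA2, the smooth muscle actin gene, with the highest CPM after LYZ, was not called, with a log2 fold change of 0.08 (edgeR adjusted p = 0.409). Of the list, DCN of fibroblasts, PTPRC of leukocytes and CD3E of T cells had 0 counts in each library. CD68 of the blood markers, named here after its values were seen, had 649 to 1138 counts in a library, or 37.3 to 42.7 CPM. Of its exon bases, 85.8% lie in exons of other annotated genes, so its counts are uncertain.

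**Figure D5:**
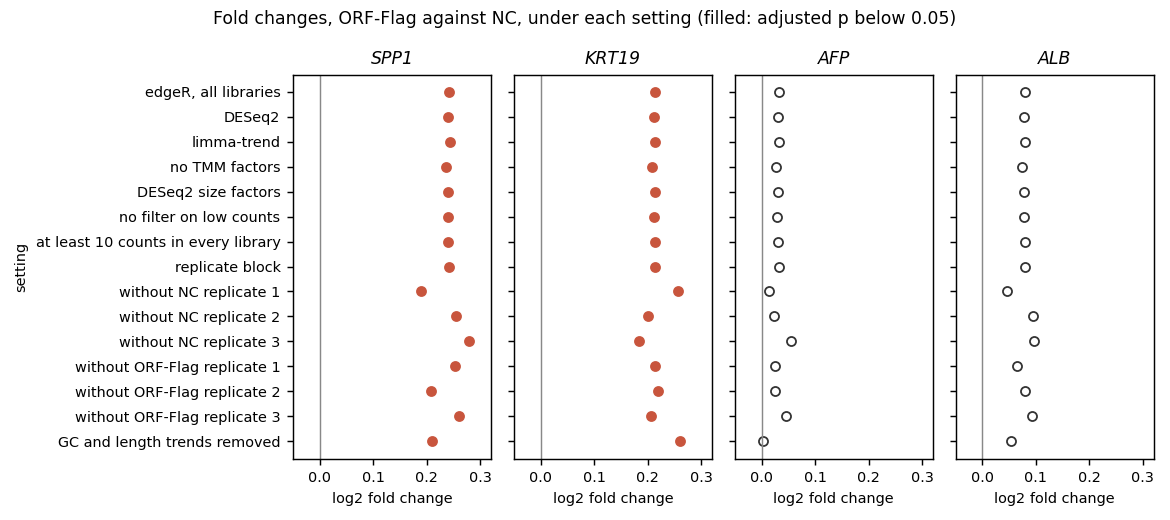
Log2 fold change of SPP1, KRT19, AFP and ALB in ORF-Flag against NC under each setting, with filled points where the adjusted p was below 0.05. SPP1 and KRT19 are filled in each row, AFP and ALB are open in each row, and leaving out NC 1 moves SPP1 down to 0.19 and KRT19 up to 0.26.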

How the data were processed

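The authors deposited 1 table of unnormalized read counts for 6 HepG2 libraries. The submitters' processing notes name cutadapt 1.11, HISAT2 2.1.0, featureCounts 1.6.0, edgeR and GRCh38, while the strand setting, the treatment of reads with several matches and the annotation release are not given in the sources used here. Columns were mapped to samples by their titles. Symbols were matched for 20421 of 20422 Ensembl identifiers. Pairs of libraries of a group differed by a chi-square of 2.39 to 5.25 per degree of freedom, so none was counted as 1 library.

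Genes were filtered with filterByExpr (defaults), which kept 12386, scaled with TMM factors of 0.995 to 1.01, and compared with glmQLFit and glmQLFTest of edgeR 4.0.16 in R 4.3.3. Standard errors and 95% intervals came from the quasi-likelihood F statistic. FPKM is TMM-normalized CPM per kilobase of union exon of GENCODE v29, which also gave positions, overlaps, GC content and 31-base stretches shared between transcripts. Promoters came from RefSeq (GRCh38.p14). The tests were checked on simulated data. Figures were drawn with matplotlib 3.10.9.

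Alternatives were DESeq2 1.42.0, limma-trend (limma 3.58.1), no TMM factors, DESeq2 size factors, no filter, at least 10 counts in every library, each library left out, a block on the replicate number, and a fold change above 1.2 with an unadjusted p below 0.05. Removal of trends on GC content and length and the list of keratin genes were added after seeing the data. The genes named were the 10 markers, the called genes of each list up to the 4 with the smallest p, its 2 genes of highest CPM (1 for the stromal, endothelial and blood cell list), and AFM and GC; others are marked in the text, and some genes of the lists are not reported here by name. The markers and lists were chosen with earlier results of these data known, so list counts and medians are descriptions.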

Additional observations from a re-analysis of the deposited data

How the results depend on the processing

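SPP1 and KRT19 were past the threshold, and AFP and ALB were not, in all 14 alternatives that refitted the genes. Under a fold change above 1.2 with an unadjusted p below 0.05 in edgeR, 0 of the 9 tested markers were counted, since SPP1 and KRT19 lay below that fold; 3 had an unadjusted p below 0.05 (18.5% of all genes did), and DESeq2 and limma-trend each called 2 at an adjusted p below 0.05. By the fold rule 4 genes of the other lists were counted, against 9 at an adjusted p below 0.05, and 562 genes in all, against 551. With each library left out in turn, 199 to 1058 genes were called, with 2 markers in each fit and 5 to 11 genes of the other lists. The share of calls that were higher was 55.5% with all libraries, 65.8% without ORF-Flag 3, 47.4% without NC 3 and 49.8% without a filter on low counts. The difference in the log2 ratio of AFP to ALB ran from -0.07 to -0.03. Over 641 results of named genes under alternatives, 13 lost a call, 12 gained one and 0 reversed a call. The 641 include the DESeq2 results of CD24, AFM, KRT17 and KRT7, which had no adjusted p and could not change a call. The cause of these changes was not tested.

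With the replicate number as a block, 731 genes, 2 markers and 9 genes of the other lists were called. The numbers were not treated as a pairing, because deviations of libraries with the same number had correlations across genes of 0.07, 0.03 and 0.04, and ORF-Flag 2 correlated best with NC 3. The block changed no call of a named gene. Among the 10 markers, depth limited PROM1 and CD24 most.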
